A study of Mus musculus with 6 samples.

Results

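The 9 genes described here handle the uptake, carriage and burning of fatty acids and the traffic of lipoprotein lipids: Cd36, Fabp3, Fabp5, Lpl, Vldlr, Apoe, Abca1, Phyh and Cpt1a. They were found by gene symbol in the probe annotation, and each was read by 1 probe, so that they are 9 of 16384 named genes and take up 9 of the 23466 probes in the table. Cd36 was picked on its measured intensity, which steps up over the 3 Ecrg4 genotypes, and its genotype pattern is therefore given as a description, with no test. The cells were brain neural stem cells of C57BL6 mice, taken at postnatal day 0. They were labelled homozygous, heterozygous or wild type for Ecrg4, a gene for a small secreted peptide precursor, with 2 arrays per label. All grew untreated in DMEM/F12 medium supplied with heparin and the growth factors bFGF and EGF. The sources used here give neither the change made to the Ecrg4 allele nor the animal or culture behind each array. A p-value below thus reflects how far apart arrays of 1 label lie, and that spread may be technical only.

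Cells take up long-chain fatty acids at the membrane, where CD36 is a main receptor. They pass them to small cytosolic binding proteins of the FABP family and then burn them in mitochondria or peroxisomes or store them as triglyceride. Lipoprotein lipase frees fatty acids from lipoprotein triglyceride, apolipoprotein E carries lipid between brain cells, the VLDL receptor binds apolipoprotein E, and ABCA1 hands cholesterol and phospholipid out to lipid-poor apolipoproteins. Neural stem cells are known to both make and oxidise fatty acids, and radial glia are rich in a brain FABP, Fabp7.

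The values are 1-colour intensities with a median of 30 on every array. As a background level, each array was given the intensity that 95% of its 663 olfactory receptor probes stay under, and it lay between 51.3 and 56.5 in homozygous, 50.5 and 54.2 in heterozygous and 53.0 and 57.6 in wild-type arrays. On the 6 arrays, 40.1% to 42.4% of the measured probes were above this level. Intensities of different probes cannot be set against each other, so each gene is compared only with itself. Ecrg4, which checks the labels, read 1.4 and 1.3 in homozygous, 345.5 and 373.9 in heterozygous and 112.9 and 154.9 in wild-type arrays. The homozygous label fits this probe. The other labels do not follow the number of unchanged alleles, and every genotype named below is that of the label, including each direction drawn between the arrays labelled heterozygous and wild type. Of 12 neural stem cell markers on the array, 11 were above background on all 6 arrays, among them Nes, Vim and Fabp7, and Prom1 was below it on all 6.

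The letters before the start site are shown for 3 of the genes with a window: Cd36, which steps up, Abca1, whose 6 arrays have the same order of genotypes, and Phyh, which is high in 1 genotype. Windows of 250 bases before the annotated start came from RefSeq (GRCm38.p6), where 7 of the 9 genes had 1 or more. The start that these cells use was not measured. For Cd36 the window is chr5:17835897-17836146 on the minus strand, and capitals mark a 16-base unit, AGGGGCGGCTCAAATC, that stands there as 2 copies end to end. For Abca1 only 30 bases are shown, chr4:53159940-53159969 on the minus strand, with capitals on a match to the DR4 motif, the kind of repeat that liver X receptors bind. For Phyh the window is chr2:4918746-4918995 on the plus strand, and it has no capitals because none of the motifs searched was found.
Cd36: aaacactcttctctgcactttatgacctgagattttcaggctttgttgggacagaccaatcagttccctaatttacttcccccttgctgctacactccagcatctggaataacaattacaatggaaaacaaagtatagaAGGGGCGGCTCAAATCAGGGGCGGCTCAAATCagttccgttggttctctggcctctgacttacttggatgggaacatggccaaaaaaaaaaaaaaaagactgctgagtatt
Abca1: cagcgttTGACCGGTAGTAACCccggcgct
Phyh: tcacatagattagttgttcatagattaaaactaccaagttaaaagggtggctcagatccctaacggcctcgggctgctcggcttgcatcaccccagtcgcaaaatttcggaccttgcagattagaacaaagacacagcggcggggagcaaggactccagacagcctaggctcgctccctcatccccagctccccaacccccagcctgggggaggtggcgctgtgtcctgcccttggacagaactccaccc

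The repeat in the Cd36 window begins 111 bases before the start, and tandem repeats with a unit of 16 bases or more were present in 0.551% of 32841 promoter windows of the same length. It was noticed after the sequences were seen. Each copy holds a GC box (GGGCGG), a motif found in 32.7% of all windows. The DR4 match of Abca1 (GGTNA, 5 free bases, then GGTCA, on either strand, in 0.177% of windows) begins 67 bases before the start, and a TATA box (TATAAA, 12.4% of windows) begins 29 bases before it. The DR1 motif to which PPAR and RXR pairs bind (AGGNCA, 1 free base, then AGGNCA, on either strand, in 0.338% of windows) was in none of the windows of the 7 genes. The hypoxia response core (ACGTG, either strand, 16.6% of windows) was found only in that of Abca1, at 2 places. A match in these letters is a description, and no match says nothing about a factor at work in these cells.

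**Figure D1:**
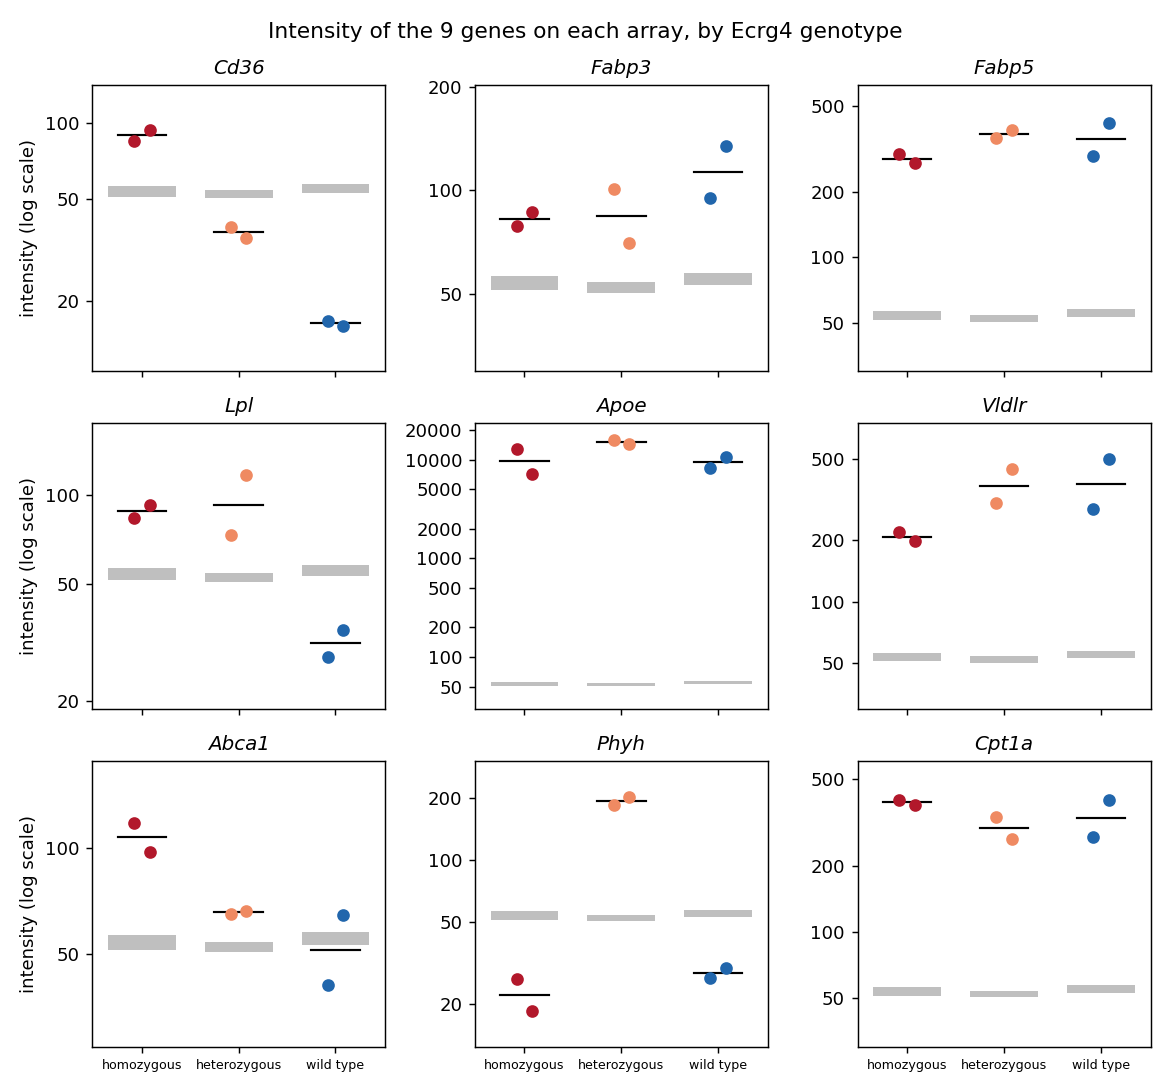
Intensity of each gene on each array (vertical axis, log scale), by Ecrg4 genotype of the label, with the geometric mean of the 2 arrays as a black line and the range of the background level of that genotype's arrays as a grey band. Cd36 and Abca1 step up from right to left, Lpl is above the band in homozygous and heterozygous arrays only, and Phyh is above it in heterozygous arrays only.

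Among the 9 genes, 5 were above background on all 6 arrays (Fabp3, Fabp5, Apoe, Vldlr and Cpt1a). The other genes crossed the background level between genotypes: Cd36 and Phyh were above it on 2 arrays, Lpl on 4 and Abca1 on 5. In the fit over all probes, 0 of the 8 genes tested passed an adjusted p of 0.05 between homozygous and wild type (limma, Benjamini-Hochberg over all probes), where 0.920% of all probes did, 0.431% higher and 0.489% lower. At an unadjusted p under 0.05 the same comparison gave 2 genes higher in homozygous (Lpl, Abca1) and 1 lower (Vldlr), against 19.0% of all probes. Between heterozygous and wild type 1 of 8 passed, Phyh, which rose, while 0.749% of all probes passed, 0.411% higher and 0.338% lower. Unadjusted p was under 0.05 for Lpl as well, against 13.5% of all probes. Between homozygous and heterozygous 1 of 8 passed, Phyh again, which fell, while 2.69% of all probes passed, 1.26% higher and 1.43% lower. Unadjusted p was under 0.05 for Abca1 (higher) and Vldlr (lower) too, against 18.2% of all probes. The 3 comparisons share arrays, so that they are not independent of each other.

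The median log2 difference over the 8 genes was -0.13 for homozygous minus wild type, 0.22 for heterozygous minus wild type and -0.23 for homozygous minus heterozygous. Over all probes these medians were 0.02, -0.01 and 0.04. Cd36 was higher without overlap in all 3 comparisons, but it was picked for those steps and is left out below. Among the 8 genes, homozygous arrays were higher than wild type without overlap for Lpl and Abca1. They were lower without overlap for Fabp3, Vldlr and, with both genotypes below background, Phyh. Across all probes 25.7% were higher without overlap and 24.8% lower, so that with 2 arrays a genotype such separation is common. Between heterozygous and wild type Lpl, Apoe, Abca1 and Phyh were higher without overlap (against 21.0% of all probes) and 0 lower (24.5%). Between homozygous and heterozygous Abca1 and Cpt1a were higher (against 28.7%) and 4 lower (Fabp5, Apoe, Vldlr, Phyh, against 25.9%).

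**Figure D2:**
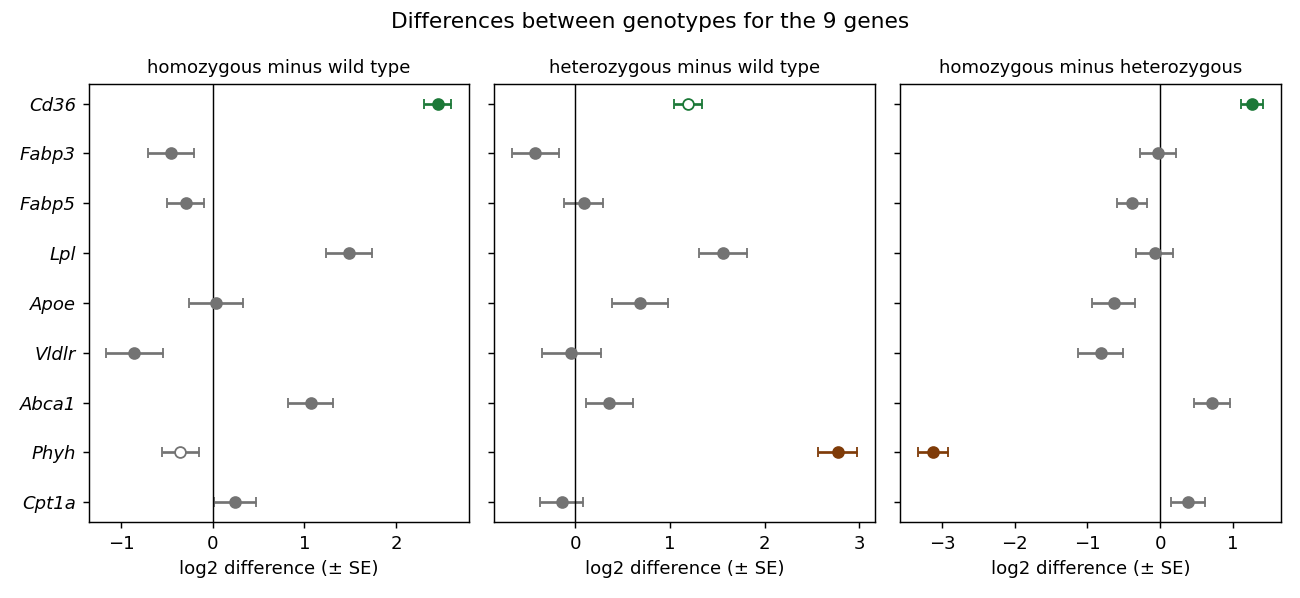
Log2 difference with its standard error (horizontal axis) for the 9 genes in 3 comparisons. Brown marks adjusted p under 0.05, green marks Cd36, which was not tested, and open circles have both genotypes below background. Phyh alone is brown, at 2.77 for heterozygous minus wild type and -3.13 for homozygous minus heterozygous.

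Cd36, the membrane receptor that takes up long-chain fatty acids and also binds oxidised lipoprotein, read 85.0 and 93.9 in homozygous, 39.1 and 35.3 in heterozygous and 16.7 and 15.9 in wild-type arrays. The readings of the 3 genotypes do not overlap, but only the homozygous arrays were above background, and levels below it have no known order. The means were 89.5 ± 6.3 in homozygous, 37.2 ± 2.7 in heterozygous and 16.3 ± 0.57 in wild type (SD, n = 2 arrays each). With the dimmer arrays set at their background level, homozygous arrays read at least 1.71-fold above heterozygous and at least 1.62-fold above wild type. Between heterozygous and wild type both sides were below background, so the lower step has no fold. The fit's log2 differences of homozygous over heterozygous and over wild type were 1.27 ± 0.15 and 2.45 ± 0.15 (SE); the second was 1.71 with a pseudocount of 16.

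A step up over the 3 genotypes without overlap was also present in other genes. It was seen for 736 of 20434 probes (3.60%), and a step down for 728 (3.56%). Cd36 was picked for its step up, and of the other genes described here only Abca1 steps up. Of the 9 genes 0 step down.

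The named genes with profiles nearest to Cd36 over the 6 arrays were Ccdc89, Apoa2, Slc25a45, Actg2 and Cldn2. Likeness was the Euclidean distance between log2 profiles centred on their own means, over 14739 candidate probes, whose median distance was 2.49. Ccdc89 lay nearest at 0.364, but read no more than 17.8 on any array and was below background on all 6. Apoa2, an apolipoprotein of high-density lipoprotein, followed at 0.547, with 66.0 and 78.5 in homozygous, 42.6 and 43.0 in heterozygous and 16.5 and 14.1 in wild-type arrays. Like Cd36 it was above background in the homozygous arrays only. Actg2, a smooth muscle actin, at a distance of 0.832, read 68.8 and 96.5 in homozygous, 61.2 and 38.8 in heterozygous and 20.6 and 25.1 in wild-type arrays. Slc25a45, a mitochondrial carrier (0.811), and Cldn2, a tight junction protein (0.869), were below background on all 6 arrays.

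**Figure D3:**
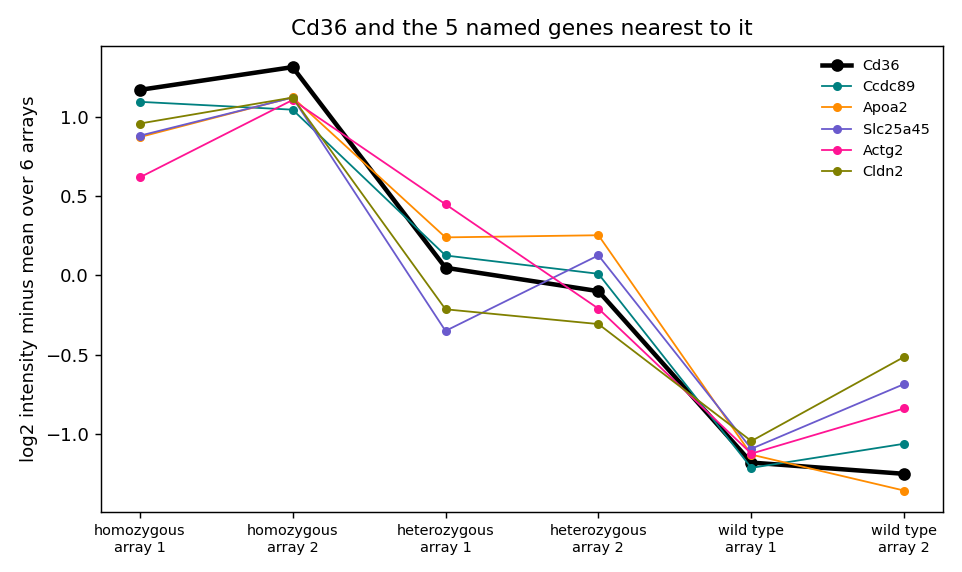
Log2 intensity minus each gene's own mean (vertical axis) on the 6 arrays (horizontal axis), for Cd36 and the 5 named genes of smallest distance to it. All 6 lines step down from the homozygous to the wild-type arrays, and they were chosen for that likeness.

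CD36 is also made by microglia, endothelial cells and adipocytes, and lipoprotein lipase by adipocytes and muscle, so markers of such cells were read beside them. Of 15 microglia and macrophage markers 14 were below background on all 6 arrays, and the last, Csf1r, passed it on 1 array. Their summed intensity was 247.0 to 270.8 in homozygous, 203.8 to 235.3 in heterozygous and 202.8 to 234.1 in wild-type arrays. Endothelial markers were below background on all 6 arrays for 11 of 12, with Flt1 above it on 5, and their sums were 117.4 to 168.6, 101.3 to 115.3 and 178.4 to 239.5 in the same order of genotypes. Adipocyte markers were below on all arrays for 4 of 5, with Adipoq blank or at most 3.0 and Cidec above background on 4 arrays. Their sums were lowest in homozygous, at 58.7 to 63.7, against 88.4 to 103.8 in heterozygous and 102.2 to 122.6 in wild-type arrays. Most of each sum was Cidec, at 34.7 and 37.5, 77.3 and 66.3, and 76.2 and 98.3 in the same order of genotypes. Plin1, the next largest, was not lowest in homozygous, at 19.1 and 19.7, 17.8 and 13.5, and 22.7 and 17.3. The sum of 12 pericyte, smooth muscle and fibroblast markers was 230.0 to 271.9 in homozygous, 434.1 to 453.8 in heterozygous and 1128 to 1438 in wild-type arrays, with 10 of the 12 below background on all 6. Acta2 was most of this sum in heterozygous and wild-type arrays but not in homozygous ones, where it read 88.0 and 118.5. The order of the sum is the reverse of that of Cd36, and its part in the results was not tested. In bulk RNA, fewer cells of a type and less RNA per cell cannot be told apart.

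Astrocyte markers were read as well, since astrocytes make much of the apolipoprotein E of brain. Of 9 on the array 5 were above background on all 6 arrays and 3 below on all 6, with Gfap at most 7.3, and their sums were 8921 to 9962 in homozygous, 9626 to 9814 in heterozygous and 10117 to 11328 in wild-type arrays. Single members differed by genotype. Sparcl1, a matrix protein, read 1325 and 1301 in homozygous, 128.4 and 198.3 in heterozygous and 55.9 and 85.0 in wild-type arrays, the order of Cd36 and Abca1. Ndrg2 read 159.1 and 69.2 in homozygous, 669.2 and 471.9 in heterozygous and 136.1 and 215.4 in wild-type arrays, and so was highest where Phyh and Apoe were. The calcium-binding protein S100b and the gap junction protein Gja1 were also highest in the heterozygous arrays, without overlap, and the water channel Aqp4 was above background in heterozygous array 1 only, while Aldoc was highest in wild type. Their part in the results was not tested.

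The cytosolic fatty acid carriers showed no difference that passed. Fabp3, the heart-type binding protein, read 78.8 and 86.4 in homozygous, 100.9 and 70.5 in heterozygous and 95.1 and 134.8 in wild-type arrays. Homozygous arrays lay below both wild-type arrays, and the heterozygous pair spanned the homozygous values and the lower wild-type one. The homozygous minus wild-type difference was -0.46 ± 0.25 (95% interval -1.06 to 0.15, limma adjusted p = 0.369). Fabp5, the epidermal type, which is also made in neural progenitors, read 298.9 and 271.7 in homozygous, 357.0 and 387.9 in heterozygous and 294.6 and 416.9 in wild-type arrays. The wild-type arrays spanned both heterozygous values and the higher homozygous one, and the log2 differences were -0.30 ± 0.20 for homozygous minus wild type and -0.38 ± 0.20 for homozygous minus heterozygous (adjusted p = 0.463 and 0.381, limma).

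Other proteins of fatty acid uptake gave no call either. The radial glial carrier Fabp7 read 46802 and 42214 in homozygous, 37792 and 37790 in heterozygous and 46144 and 37400 in wild-type arrays. Each of the other genotypes overlapped wild type, and homozygous arrays were above heterozygous ones (adjusted p = 0.517, limma). Fabp4, the adipocyte carrier, was at most 7.1 on any array. The fatty acid transport protein Slc27a1 read 129.6 and 156.5 in homozygous, 114.2 and 120.6 in heterozygous and 149.2 and 142.1 in wild-type arrays. Its relative Slc27a4 read 83.0 and 80.1 in homozygous, 71.1 and 66.4 in heterozygous and 79.8 and 75.7 in wild-type arrays. Both were lowest in the heterozygous arrays, at adjusted p of 0.418 and 0.421 for homozygous minus heterozygous (limma).

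Lpl, the lipase that frees fatty acids from lipoproteins, read 83.5 and 92.6 in homozygous, 73.4 and 117.0 in heterozygous and 28.2 and 34.8 in wild-type arrays. The arrays labelled homozygous and heterozygous were all above background, and both wild-type arrays were below it. Against the background level of the wild-type arrays, Lpl was at least 1.59-fold higher in homozygous and at least 1.68-fold higher in heterozygous. The log2 differences were 1.49 ± 0.25 and 1.56 ± 0.25, with adjusted p of 0.0636 and 0.0703 (limma), which miss the threshold, at unadjusted p of 0.000916 and 0.000699. Homozygous and heterozygous arrays overlapped, with a difference of -0.08 ± 0.25 (95% interval -0.69 to 0.54, adjusted p = 0.905).

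The Lpl differences from wild type passed in 3 other settings. With a pseudocount of 16 the adjusted p was 0.0227 for homozygous and 0.0301 for heterozygous. With only probes above background on all arrays of at least 1 genotype they were 0.0119 and 0.0145, and with a robust prior that follows the mean intensity 0.00522 and 0.00506. Lpl enters that filter only through the homozygous and heterozygous arrays, where it is high, so the filtered values add no support of their own. The summed intensity of 9 neuron markers on the array, most of it Gap43, also stood lowest in wild type. It was 5315 to 5382 in homozygous, 4071 to 5398 in heterozygous and 2067 to 2090 in wild-type arrays. Of the 9 markers, 6 were below background on all 6 arrays, among them Dcx. Elavl4 overlapped between heterozygous and wild type. Ina was lowest in heterozygous, at 33.9 and 34.1 against 70.2 and 65.5 in wild type. The summed oligodendrocyte lineage markers, most of it Olig1, were lowest in wild type too. Their sums were 12103.5 to 14417.1, 12150.5 to 13793.6 and 10335.7 to 11071.3 in the same order of genotypes. Of the 3 above background on all 6 arrays, Olig1 and Cnp were lowest in wild type without overlap. Olig2 was not, at 2948.5 and 2576.3 in homozygous against 2828.7 and 3202.6 in wild type. Whether either sum has a part in the Lpl values was not tested.

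Vldlr, the receptor for very low density lipoprotein and apolipoprotein E, read 219.8 and 198.6 in homozygous, 304.1 and 445.1 in heterozygous and 286.5 and 500.8 in wild-type arrays. Homozygous arrays were below all 4 others, and the other genotypes overlapped widely. The homozygous minus wild-type difference of -0.86 ± 0.31 (0.552-fold) and the homozygous minus heterozygous one of -0.82 ± 0.31 missed the threshold at adjusted p of 0.218 and 0.241 (limma). Lrp8, the other apolipoprotein E receptor that binds reelin, was below background throughout, at 12.7 or less. The chaperone of these receptors, Lrpap1, read 931.7 and 929.8 in homozygous, 1172 and 1402 in heterozygous and 968.8 and 1197 in wild-type arrays (homozygous minus heterozygous -0.46 ± 0.18, adjusted p = 0.245, limma). The sorting receptor Sorl1 read 91.3 and 57.5 in homozygous, 59.6 and 70.1 in heterozygous and 44.7 and 54.6 in wild-type arrays, with wild type lowest and below background (homozygous minus wild type, adjusted p = 0.305, limma).

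Apoe, the main lipid carrier of brain, was far above background, at 12851 and 7185 in homozygous, 15637 and 14367 in heterozygous and 8216 and 10664 in wild-type arrays. The homozygous arrays were farther apart than either other pair and enclosed both wild-type values, while the heterozygous arrays were above all others. Homozygous minus wild type was 0.04 ± 0.30 (adjusted p = 0.960, limma), and it had the other sign with median centring (-0.017) or without homozygous array 1 (-0.38) or wild-type array 1 (-0.15). Heterozygous minus wild type was 0.68 ± 0.30 (adjusted p = 0.379), and homozygous minus heterozygous was -0.64 ± 0.30 (adjusted p = 0.325). Clusterin (Clu), another apolipoprotein of brain, read 170.0 and 94.7 in homozygous, 124.4 and 143.4 in heterozygous and 59.8 and 88.2 in wild-type arrays. The arrays labelled homozygous and heterozygous all read above both wild-type arrays, at adjusted p of 0.251 for homozygous and 0.329 for heterozygous (limma).

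Abca1, the pump that loads cholesterol onto apolipoproteins, read 118.4 and 97.7 in homozygous, 65.1 and 66.2 in heterozygous and 40.7 and 64.4 in wild-type arrays. The genotypes step up without overlap, as for Cd36, although wild-type array 2 was within 2 units of the heterozygous arrays and only wild-type array 1 was below background. Homozygous minus wild type was 1.07 ± 0.24 (2.10-fold, adjusted p = 0.109, limma) and homozygous minus heterozygous 0.71 ± 0.24 (1.64-fold, adjusted p = 0.204). The larger difference passed with a pseudocount of 16 (0.0352), with probes above background only (0.0280) and with the robust trended prior (0.0205). Abca1 enters the background filter only through the homozygous and heterozygous arrays, so the filtered value adds no support of its own. Abcg1, the partner pump that loads high-density lipoprotein, was at most 14.9 and below background on all 6 arrays. Abca7, a relative of Abca1, read 39.5 and 44.7 in homozygous, 72.9 and 67.3 in heterozygous and 61.0 and 47.6 in wild-type arrays, with homozygous below all others. Its adjusted p for homozygous against heterozygous was 0.103 (limma), and the difference passed in 4 of 16 alternatives (0.0288 to 0.0427). These include the background filter, which Abca7 enters only through the heterozygous arrays, where it is high.

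Phyh, the peroxisomal hydroxylase that starts alpha oxidation of phytanic acid, a branched dietary fatty acid, read 26.4 and 18.6 in homozygous, 185.1 and 202.7 in heterozygous and 26.8 and 29.9 in wild-type arrays. The heterozygous arrays stood alone above background. Phyh rose at least 3.50-fold in heterozygous over wild type (log2 2.77 ± 0.21, limma adjusted p = 0.0069) and was at least 3.60-fold lower in homozygous than in heterozygous (-3.13 ± 0.21, adjusted p = 0.00348). Homozygous and wild-type arrays were both below background, so no fold is given between them (adjusted p = 0.395). The higher call was lost without heterozygous array 2 (adjusted p = 0.064) or wild-type array 1 (0.0687), and the lower call without homozygous array 2 (0.0542), while the log2 values stayed at 2.71, 2.70 and -2.88.

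Alpha oxidation goes on with Hacl1, the lyase that splits the product of Phyh, and Hacl1 was highest in heterozygous and lowest in homozygous arrays. It read 134.0 and 115.1 in homozygous, 336.9 and 341.2 in heterozygous and 183.7 and 261.6 in wild-type arrays, above background on all 6. Hacl1 was 2.73-fold lower in homozygous than in heterozygous (-1.45 ± 0.21, limma adjusted p = 0.0274). Against wild type the differences missed the threshold, at -0.82 ± 0.21 for homozygous (adjusted p = 0.129) and 0.63 ± 0.21 for heterozygous (0.297). The call was lost without homozygous array 1 (0.149) or 2 (0.206) and without heterozygous array 1 (0.118) or 2 (0.142), at log2 values between -1.56 and -1.34. It was lost with a replicate block too (0.0652).

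Amacr, which readies the branched product for beta oxidation, and Pex7, which imports Phyh into peroxisomes, were looked up after their values were known. Amacr read 393.6 and 356.9 in homozygous, 431.7 and 462.8 in heterozygous and 384.4 and 450.4 in wild-type arrays. Pex7 read 319.9 and 302.7 in homozygous, 340.1 and 299.0 in heterozygous and 232.9 and 333.2 in wild-type arrays. The genotypes overlapped for Pex7 in all comparisons, and for Amacr in all but homozygous against heterozygous (-0.25 ± 0.16, adjusted p = 0.460, limma).

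**Figure D4:**
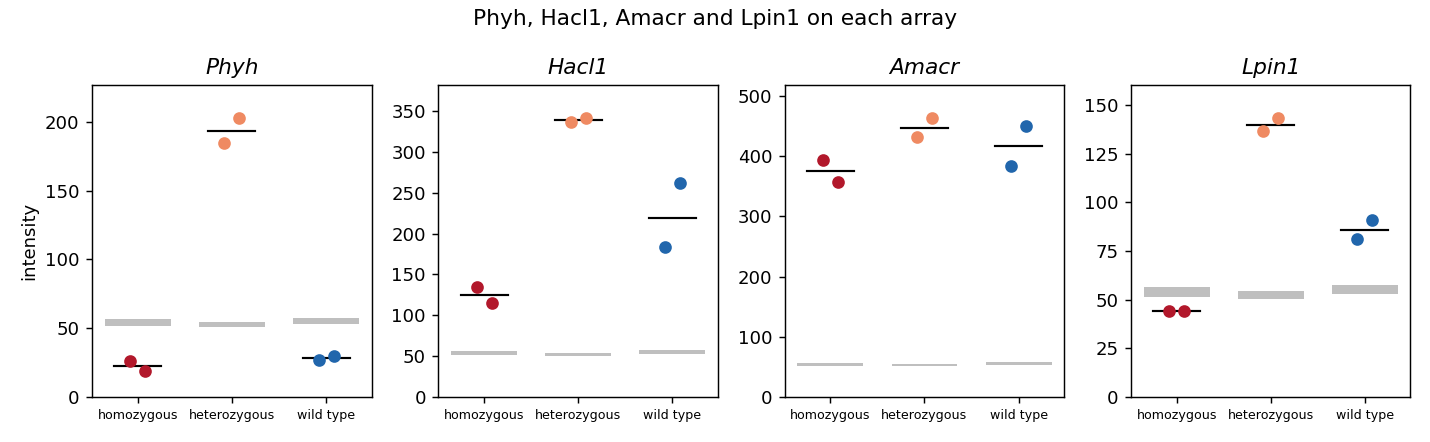
Intensity (vertical axis, linear from 0) of Phyh, Hacl1, Amacr and Lpin1 on each array by genotype, with the geometric mean as a black line and the range of the background level as a grey band. Phyh is above the band in the heterozygous arrays only, Hacl1 and Lpin1 are highest in the heterozygous and lowest in the homozygous arrays, and Amacr lies between 356.9 and 462.8 throughout.

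Cpt1a, the liver-type carnitine palmitoyltransferase that controls the entry of fatty acids into mitochondria, read 404.0 and 380.5 in homozygous, 336.4 and 268.1 in heterozygous and 273.2 and 404.0 in wild-type arrays. The wild-type pair spanned nearly the whole range, and homozygous arrays were above heterozygous ones. No difference passed: 0.24 ± 0.23 for homozygous minus wild type, -0.15 ± 0.23 for heterozygous minus wild type and 0.38 ± 0.23 for homozygous minus heterozygous (adjusted p = 0.607, 0.787 and 0.441, limma). The brain form Cpt1c read 418.7 and 366.4 in homozygous, 386.2 and 352.4 in heterozygous and 298.0 and 303.1 in wild-type arrays. Wild type was lowest for Cpt1c without overlap, at adjusted p of 0.250 for homozygous and 0.433 for heterozygous (limma). Cpt2, the enzyme of the inner membrane, read 150.9 and 151.8 in homozygous, 283.7 and 308.4 in heterozygous and 183.6 and 345.8 in wild-type arrays. Homozygous was lowest for Cpt2 without overlap (homozygous minus heterozygous -0.97 ± 0.29, adjusted p = 0.161, limma). That difference passed in the fit of only the arrays compared (adjusted p = 0.035, limma).

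Beyond the 9 genes, 8 lists of lipid genes held 137 others, of which 122 were on the array and 116 were tested, and 51 of these were above background on all 6 arrays. Between homozygous and wild type 0 of the 116 rose and 1 fell (0.862%, against 0.920% of all probes). Between heterozygous and wild type 0 rose and 1 fell (0.862%, against 0.749%), and between homozygous and heterozygous 1 rose and 2 fell (2.59%, against 2.69%). Their median log2 differences were -0.05, 0.06 and -0.07 in that order. Lipid genes as listed thus passed at close to the share of all probes in each comparison.

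Of 15 genes tested from the list of lipid droplet and triglyceride synthesis genes, 1 passed between homozygous and wild type, Cidec. Between homozygous and heterozygous 1 passed, Lpin1. Over all probes 0.920% and 2.69% passed in these comparisons. Lpin1, a phosphatidate phosphatase that makes diacylglycerol and in liver acts with PPAR-alpha, read 44.0 and 44.4 in homozygous, 136.6 and 143.2 in heterozygous and 81.2 and 90.9 in wild-type arrays. Lpin1 was at least 2.6-fold lower in homozygous, where it was below background, than in heterozygous (-1.66 ± 0.15, limma adjusted p = 0.00747). Homozygous minus wild type, at -0.96 ± 0.15, came close to the threshold (adjusted p = 0.0518). The call was lost without homozygous array 1 (0.086) or 2 (0.0931) and without heterozygous array 1 (0.0557) or 2 (0.0604), with log2 values between -1.70 and -1.63.

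Cidec, a lipid droplet protein best known in adipocytes, read 34.7 and 37.5 in homozygous, 77.3 and 66.3 in heterozygous and 76.2 and 98.3 in wild-type arrays. It was below background in homozygous arrays only, and at least 1.61-fold lower there than in wild type (-1.26 ± 0.19, limma adjusted p = 0.0476). Leaving out any 1 array ended this call: the adjusted p was 0.299 and 0.260 without homozygous array 1 or 2, 0.101 without either heterozygous array, and 0.0866 and 0.0634 without wild-type array 1 or 2. In all, 10 of 16 alternatives ended it. Of the 15 genes of the list, 4 had a positive and 11 a negative homozygous minus wild-type difference (median -0.19, against 0.02 over all probes). Homozygous minus heterozygous also gave 4 positive and 11 negative (median -0.25), and heterozygous minus wild type 9 positive and 6 negative (median 0.08). Of these genes 6 were below background on all 6 arrays, and the directions were not tested as a set.

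**Figure D5:**
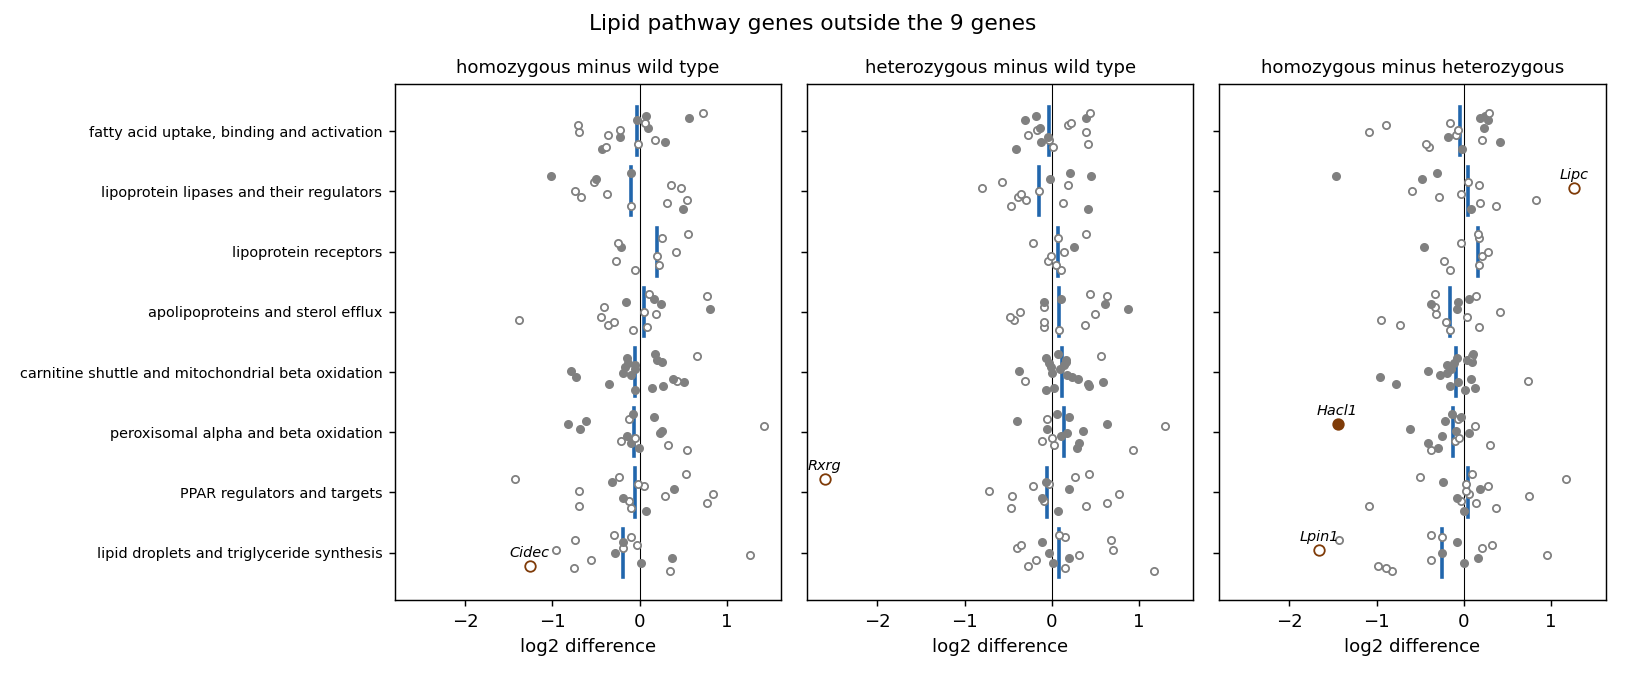
Log2 difference (horizontal axis) of each listed lipid gene outside the 9, by list (rows), in 3 comparisons; filled points are above background on all 6 arrays, blue lines are list medians, and the named brown points have an adjusted p under 0.05. The named points are Cidec, Rxrg, Lipc, Hacl1 and Lpin1, and the medians lie between -0.25 and 0.19.

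The remaining calls lay below background on all 6 arrays and have no fold. Lipc, hepatic lipase, read 3.4 and 4.9 in homozygous, 1.8 and 1.6 in heterozygous and 2.8 and 3.1 in wild-type arrays (homozygous minus heterozygous, adjusted p = 0.0405, limma). Rxrg, a retinoid X receptor, read 10.5 and 13.0 in homozygous, 6.1 and 4.4 in heterozygous and 25.7 and 38.6 in wild-type arrays (heterozygous minus wild type, adjusted p = 0.0171, limma). Leaving out any 1 array ended the Lipc call (0.0576 to 0.223), and any but wild-type array 2 ended that of Rxrg (0.0647 to 0.109). The nuclear receptors Pparg and Ppard, regulators of Cd36 and Lpl in other tissues, read at most 5.8 and 8.1 and were below background on all 6 arrays.

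In the other 4 lists of lipid genes 0 genes passed in any comparison (limma), while some had an unadjusted p under 0.05. Of 20 genes of the carnitine shuttle and mitochondrial beta oxidation tested, 4 did so between homozygous and wild type, 2 in each direction, against 19.0% of all probes. The matrix enzyme Echs1 was the largest of these among genes above background, at 474.9 and 510.3 in homozygous, 696.3 and 618.7 in heterozygous and 960.8 and 756.1 in wild-type arrays (-0.79 ± 0.18, adjusted p = 0.107, limma). The genotypes did not overlap, with homozygous lowest and wild type highest. It passed with a pseudocount of 16 (0.025), with probes above background only (0.025) and with the robust trended prior (0.0154). Of 16 genes of fatty acid uptake, binding and activation, 3 had an unadjusted p under 0.05 between homozygous and wild type, against the same 19.0%. Both lists thus lay near the share of all probes. Slc27a3, an acyl-CoA synthetase of the transport protein family, had the largest difference among the uptake genes above background. It read 98.1 and 92.9 in homozygous, 75.3 and 94.2 in heterozygous and 64.5 and 64.3 in wild-type arrays (0.57 ± 0.17, adjusted p = 0.163, limma).

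Mgll, the lipase that cleaves monoglycerides, read 124.2 and 59.8 in homozygous, 264.6 and 212.8 in heterozygous and 144.2 and 209.9 in wild-type arrays. The homozygous arrays were lowest without overlap (homozygous minus wild type -1.01 ± 0.37, adjusted p = 0.224, limma). That difference was -1.54 without homozygous array 1 and -0.49 without homozygous array 2, and it passed in neither case. Acadvl, the first enzyme of beta oxidation for very long chains, read 1404 and 1518 in homozygous, 1523 and 1548 in heterozygous and 835.7 and 1253 in wild-type arrays. Wild type was lowest without overlap (heterozygous minus wild type 0.59 ± 0.22, adjusted p = 0.331, limma).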

How the data were processed

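Per the file headers and labels, the authors deposited 1-colour array intensities on a linear scale; the scanner, the background correction and the rule for blank cells are not stated in the sources used here. The labels name biotin as label but describe dye coupling. Of 23466 probes, 21740 to 22561 had a value on an array, and the 20434 with a value on all 6 were tested; the number of arrays limits the precision. Values were taken as log2 with no pseudocount and fitted with limma 3.58.1 in R 4.3.3 (lmFit, eBayes, 1 coefficient per genotype, 3 residual degrees of freedom, prior 3.27). Tests were two-sided, with Benjamini-Hochberg adjustment over all probes and a threshold of 0.05. Errors after log2 differences are standard errors of that fit. Where the lower genotype was below background on both arrays, "at least" folds set it, per array, at the higher of its own value and the background level.

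Symbols came from the platform annotation (16625 probes named, 6841 unnamed here), updated through a RefSeq gene table: 12620 were current and 3943 replaced. The members and lists were chosen with earlier results of these data known. Named genes were the 9, Ecrg4, family mates, the 5 nearest to Cd36, and per list and comparison up to 3 passing genes or, failing these, the largest difference among genes above background in at least 1 genotype. Alternatives covered scaling, pseudocount, filter, blank cells, prior, weights, the arrays fitted, a block and each array left out. Leaving out an array of the genotype not compared gave the same values as fitting only the arrays compared. The alternatives are thus not all separate, and counts of them include these repeats. The fit was tested on simulated data.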

Additional observations from a re-analysis of the deposited data

How the results depend on the processing

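Every difference of the 9 genes was recomputed under 16 alternatives per comparison, 432 in all: 405 kept direction and side of the threshold, 3 lost a call, 9 gained one, 12 changed sign and 3, all for Cd36 with a pseudocount of 16 (log2 differences of 1.71 and 0.99 for homozygous over wild type and over heterozygous, and 0.72 for heterozygous over wild type), moved beyond the spread. The background filter takes in Lpl, Abca1 and Phyh only through genotypes where they are high, so their calls under it add no support of their own. Cd36 was not tested in any setting. Among the 8 genes tested, the number past the threshold for homozygous minus wild type was 2 in place of 0 in 3 settings. These were a pseudocount of 16, probes above background only, and an intensity trend and robust prior (Lpl and Abca1, both higher). For heterozygous minus wild type it was 2 in place of 1 in the same 3 settings (Phyh and Lpl) and 0 to 1 when single arrays were left out; for homozygous minus heterozygous it was 0 to 1 then. Sign changes were found only in differences that had not passed. For homozygous minus wild type, Apoe changed sign with median centring (-0.017), and leaving out single arrays gave -0.38 to 0.46 for Apoe (negative without homozygous replicate 1 or wild-type replicate 1, the second at -0.15) and -0.043 to 0.52 for Cpt1a (negative without wild-type replicate 1). For heterozygous minus wild type the same step gave -0.44 to 0.36 for Vldlr (positive without heterozygous replicate 1, 0.23, or wild-type replicate 2), -0.43 to 0.14 for Cpt1a (positive without heterozygous replicate 2, 0.018, or wild-type replicate 2) and -0.16 to 0.34 for Fabp5 (negative without wild-type replicate 1). For homozygous minus heterozygous it gave -0.29 to 0.23 for Fabp3 (positive without homozygous replicate 1, 0.035, or heterozygous replicate 1) and -0.41 to 0.26 for Lpl (positive without heterozygous replicate 2).

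Over all probes the number past the threshold for homozygous minus wild type was 188, against 314 with median centring (126 higher, 188 lower), 328 with quantile normalization, 313 with cyclic loess, 1143 with a pseudocount of 16, 875 with probes above background only, 88 with blank cells filled, 1094 with an intensity trend and robust prior, 89 with array weights, 59 with only the arrays compared, 47 with a replicate block and 1 to 224 when single arrays were left out. For heterozygous minus wild type it was 153, against 306, 400, 100, 40 and 51 with the pseudocount, trend, weights, only the arrays compared and block, and 18 to 340 when single arrays were left out. For homozygous minus heterozygous it was 549 (257 higher, 292 lower), against 1376, 998, 320, 1357, 1261 and 244 with the pseudocount, probes above background, filled cells, trend, weights and block, and 6 to 680 when single arrays were left out. The cause was not tested. Arrays with the same replicate number did not deviate together over the probes (r = -0.08, 0.01 and 0.02 between genotypes). With 1 such deviation per genotype, this cannot settle whether the numbers pair the arrays, and the labels do not say. Under the block 0, 1 and 1 of the 8 tested genes passed. Levels below background have no known order, which limits what can be said of Cd36, Lpl, Abca1 and Phyh.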
